A study of Mus musculus with 8 samples.

Results

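The translation initiation factor genes of the mouse were taken as every protein-coding row of the count table whose symbol begins with *Eif* followed by a digit. This rule found 73 of the 55416 genes in the table. Polyadenylated RNA from the cerebral cortex had been sequenced in 4 libraries from mice heterozygous for an L192P substitution in *Ago2* (genotype AGO2_L192P/+, called L192P below) and in 4 libraries from wild-type mice (WT). The allele was a CRISPR/Cas9 knock-in whose founders had been crossed to C57/Bl6 wild-type mice. The name L192P follows the labels, and the study's methods number the substitution in the mouse protein differently. The labels name no other allele and no agent in either group. The labels give neither age nor sex, and they do not say whether each library came from a separate animal, so that p-values measure the spread between these libraries. *Ago2* itself had between 2083 and 2398 normalized counts in the 8 libraries, a level that cannot show which allele is present.

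A ribosome finds the start of a message in ordered steps. eIF2 with GTP brings the initiator tRNA to the small subunit, helped by eIF1, eIF1A, eIF5 and the large eIF3 complex; eIF4E holds the mRNA cap, eIF4G bridges cap and ribosome, eIF4A unwinds the leader, and eIF5B joins the large subunit. The pathway is slowed when kinases phosphorylate the alpha subunit of eIF2, which blocks its exchange factor eIF2B, or when 4E-binding proteins occupy eIF4E. Argonaute proteins guided by a miRNA silence messages partly by interfering with this step. The question of the comparison was which cortical transcripts differ in abundance between the genotypes, and for these genes, whether the initiation machinery was among them.

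The libraries held between 20396357 and 43575900 counts, of which the 73 genes took between 0.723% and 0.769%. Exons of another gene on the opposite strand overlap 33 of the 53 genes described below (62.3%). At least 1 count was found for 59 of the 73. The 14 genes with no count in any library were all *Eif1ad*-named copies, and 16 of the 17 *Eif1ad*-named genes, all but *Eif1ad* itself, lie on chromosome 12. A mean of at least 10 normalized counts was reached by 53 genes, which are described below, and 6 were detected at a lower mean. Normalized counts are counts divided by a size factor per library, and fold changes are given as log2 of L192P over WT from DESeq2. The replicate 1 libraries of both genotypes stood apart in sex-linked genes, with *Xist* at 0.934 and 1.82 normalized counts against 5185 to 7257 in the other 6. Genes of chromosome Y had 3547 and 3534 raw counts in these replicate 1 libraries (L192P and WT) and 186 to 573 in the other 6. Read by these genes, the replicate 1 libraries were male and the other 6 female, though the labels give no sex. Libraries were numbered alike in both genotypes and same-numbered libraries deviated together, so values from a second fit, blocked on that number (replicate block), stand beside a result where they changed it. Marker genes of cortical excitatory neurons were detected throughout, with summed normalized counts of 88042 to 93545 in L192P and 88200 to 108322 in WT. Summed striatal markers were 27671 to 34446 in L192P and 36408 to 44404 in WT, and *Penk* among them was called lower. Summed hypothalamic markers were 310.7 to 1337 in L192P and 182.5 to 314.9 in WT, with 2 of 9 called higher (*Oxt* and *Avp*). Of the interneuron markers *Gad2* was called higher, and the lists for 9 other cell types or regions held no call without the replicate block. All 10 excitatory estimates were below 0, and the block called 3 of them lower, *Slc17a7*, *Tbr1* and *Neurod6* (DESeq2 adjusted p = 0.0431, 0.0147 and 0.000661). It also called *Pvalb* of the interneuron list and *Drd2*, *Adora2a* and *Ppp1r1b* of the striatal list lower, and *Cx3cr1* (microglia), *Slc17a6* (thalamus) and *Trh* (hypothalamus) higher. *Oxt* had no adjusted p with the block. No marker was at 0 in all libraries, and the part of tissue composition in the values below was not tested. In bulk tissue, fewer cells of a type and less RNA per cell cannot be told apart.

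No translation initiation factor gene was called between L192P and WT in the fit with genotype as the only term. DESeq2 gave 0 of 53 members with an adjusted p under 0.05, where 1.36% of all 18627 genes tested were called (0.789% higher and 0.569% lower), a share that would give 0.72 of 53. The 53 with an adjusted p include the weakly expressed *Eif4ebp3* and leave out *Eif2s3y*. At an unadjusted p under 0.05 there were 3 members, *Eif3a* and *Eif5b* higher and *Eif4h* lower in L192P, or 5.66% against 9.44% of all genes tested. edgeR and limma-voom also called 0 of 52 members, but they called few genes of any kind, 0.314% and 0.266% of all genes they tested. The replicate block called 1 of 52 members, *Eif3a* (DESeq2 adjusted p = 0.0152), against 4.25% of all genes. Without the block the estimates lay on either side of 0 in almost equal number, 27 above and 26 below among the 53 genes with a mean of at least 10. Their median log2 fold change was 0.0015, beside 0.0019 over all genes tested, and they ran from -0.11 (*Eif3b*) to 0.26 (*Eif4ebp1*).

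The data bounded most of these genes closely. The 95% interval of the fold change lay within 1.25-fold in either direction for 48 of the 53, beside 43.4% of all genes tested, and within 1.5-fold for 51, beside 64.6% of all genes tested. These are well-expressed genes, and among genes with a mean of at least 1000 normalized counts the narrower bound held for 39 of 40 members and for 87.4% of all genes tested. The intervals of *Eif5b*, *Eif2ak2*, *Eif4ebp1*, *Eif3j2* and *Eif2s3y* passed 1.25-fold. The median coefficient of variation between WT libraries was 4.89% for the members and 10.8% over all genes tested, and at means of at least 1000 it was 4.70% and 5.86%.

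**Figure D1:**
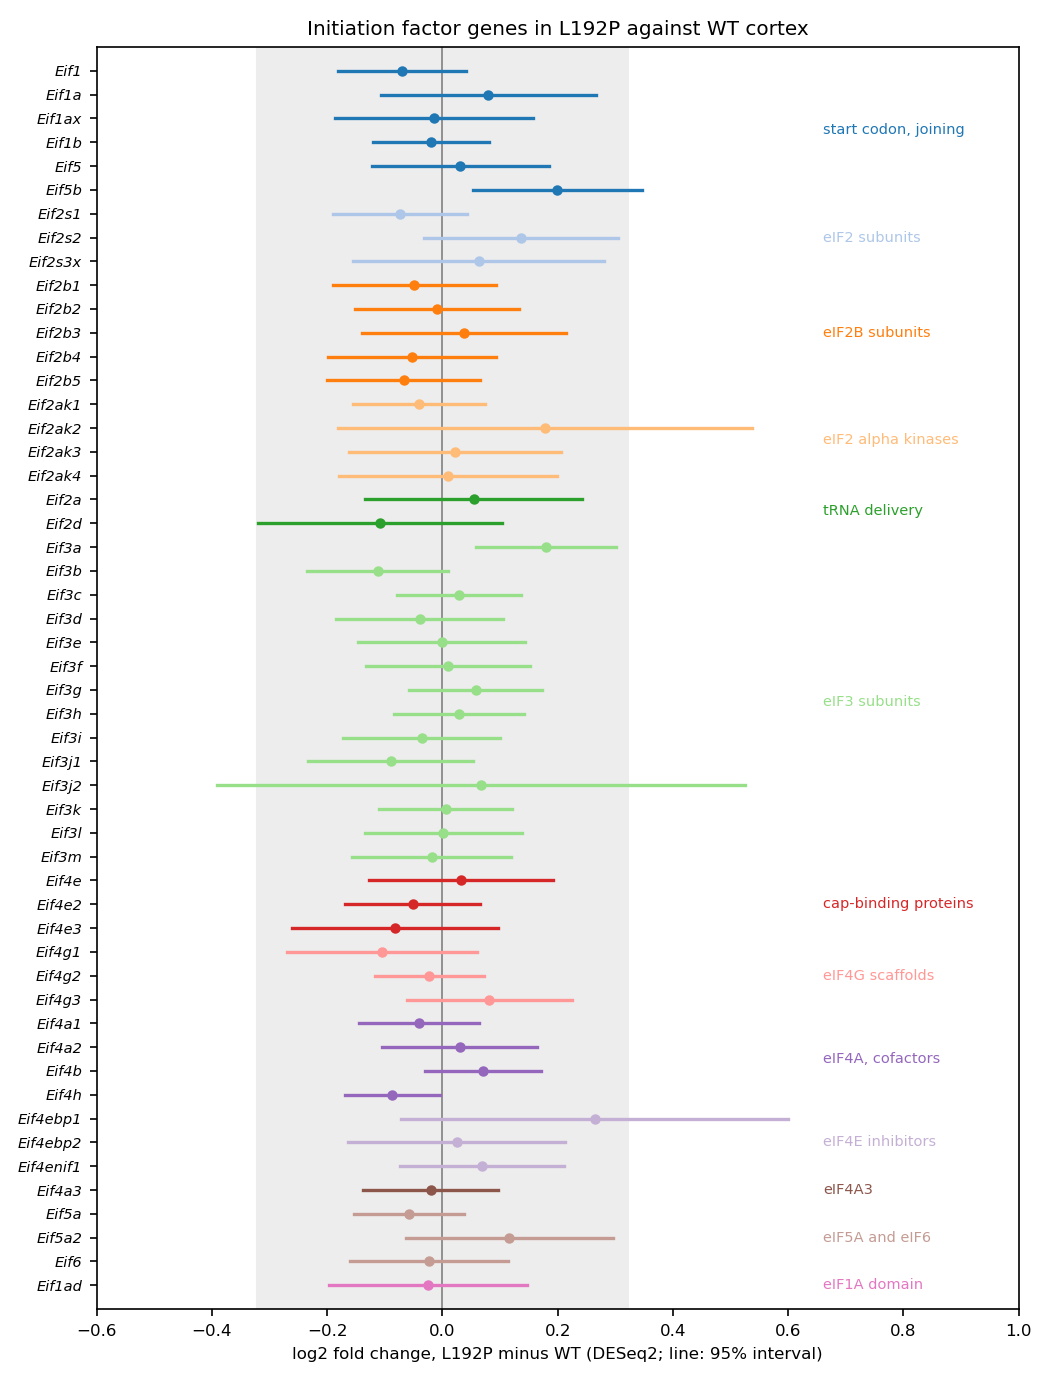
Log2 fold change of L192P over WT (horizontal axis) with its 95% interval for 52 initiation factor genes with a mean of at least 10 normalized counts, coloured by role; *Eif2s3y*, present in 2 libraries only, is left out and the grey band marks 1.25-fold in either direction. Nearly all points lie between -0.11 and 0.20, and the intervals of *Eif3a* and *Eif5b* lie above 0 while that of *Eif4h* ends just below it.

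The eIF3 complex is the largest initiation factor and holds the small subunit, the mRNA and eIF4G together. All 14 of its genes passed the mean of 10, 0 were called, and 8 estimates were above 0 and 6 below, with a median of 0.0034. *Eif3a* (chr19:60749551-60779149, minus strand, GRCm39), which encodes the scaffold subunit of the complex, had the smallest p of all members. Its normalized counts were 4438, 4352, 4517 and 4861 in L192P replicates 1 to 4 and 4057, 3716, 4201 and 4077 in WT. Every L192P library was above every WT library. The log2 fold change was 0.18 (SE 0.06, DESeq2 adjusted p = 0.148), an estimate of 13.2% with a 95% interval of 4.08% to 23.2% that did not pass the test. With the replicate block *Eif3a* was called at an adjusted p of 0.0152 (DESeq2, log2 fold change 0.18, SE 0.05), the 1 member called there among 52, or 1.92%, against 4.25% of all genes (1.82% higher and 2.43% lower).

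AGO2 finds its targets through bases 2 to 8 of the bound miRNA, the seed, and the 3′ UTR of *Eif3a* (964 bases in its canonical GENCODE transcript) held 1 match to the seeds of 11 brain-expressed or study-named miRNAs, that of miR-26a-5p. That seed was matched in 6 of 52 members (11.5%, against 12.1% of all genes). The mature miRNA (RefSeq) and the UTR site on the strand of the message (chr19:60749961-60749983, minus strand, GRCm39) follow, with the seed and its match in capitals.
miR-26a-5p: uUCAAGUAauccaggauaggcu
Eif3a site: gtagacttTACTTGAgaggtgag

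The other eIF3 subunits had smaller estimates. *Eif3b*, the RNA-binding subunit next to *Eif3a* in the core, had 3015 ± 159 normalized counts in L192P and 3257 ± 147 in WT (SD, n = 4 each), with a log2 fold change of -0.11 (SE 0.06, DESeq2 adjusted p = 0.601). Its groups overlapped. It was lower in L192P within all 4 pairs of equal number, as were *Eif2b5*, *Eif4e2* and *Eif4e3*. How often this happens over all genes was not examined. *Eif3c*, *Eif3e*, *Eif3k* and *Eif3l* had log2 fold changes of 0.03, -0.0014, 0.0054 and 0.0015. *Eif3a* thus had the largest estimate of the 14 subunit genes, and the difference between subunits was not tested. Per kilobase of canonical transcript, the 13 subunit genes other than the low *Eif3j2* spanned 215 (*Eif3j1*) to 2278 (*Eif3k*) normalized counts, with a median of 1055.

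Start codon recognition and subunit joining were represented by 6 genes, of which 0 were called and 3 estimates were above 0. *Eif5b* (chr1:38037038-38094683, plus strand), the GTPase that joins the large ribosomal subunit, had 3896, 4666, 4535 and 4688 normalized counts in L192P replicates 1 to 4 and 4154, 3599, 3876 and 3866 in WT. The L192P replicate 1 library lay among the WT libraries, and the other 3 were above every WT library. The log2 fold change was 0.20 (SE 0.07, DESeq2 adjusted p = 0.221). Without both replicate 1 libraries it was 0.29 (SE 0.06) and passed the test with an adjusted p of 0.000173, and without L192P replicate 1 alone it was 0.26 with an adjusted p of 0.0113 (1.61% of all genes were called there). The replicate block left *Eif5b* at an adjusted p of 0.0672 (DESeq2). Exons of *Rev1* on the other strand cover 19.9% of the exonic bases of *Eif5b*, and whether the counting used the strand is not known.

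The long *Eif5b* 3′ UTR (3889 bases) held 5 seed matches, 3 of them to miR-132-3p, a miRNA induced by neuronal activity. They are shown because 1 seed was matched 3 times in 1 UTR. The sites lie on the plus strand at chr1:38091739-38091761, chr1:38092632-38092654 and chr1:38093985-38094007.
miR-132-3p: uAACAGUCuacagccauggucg
Eif5b site 1: tggcattgGACTGTTgagcaatt
Eif5b site 2: cctcaattGACTGTTgggacatg
Eif5b site 3: gacagctaGACTGTTttcaaatc
The remaining matches were to miR-29a-3p and miR-5121, at 1 site each.

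Among the other genes of this step, *Eif1*, which keeps the small subunit scanning until a start codon is met, had mean normalized counts of 10581 ± 628 in L192P and 11105 ± 249 in WT (SD, n = 4 each), and its log2 fold change was -0.07 (SE 0.06, DESeq2 adjusted p = 0.810). *Eif5*, the GTPase activator of eIF2, and *Eif1b* had log2 fold changes of 0.03 and -0.02. *Eif1ad*, the nuclear relative with an eIF1A domain, had -0.03. None of these passed the test.

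The eIF2 genes encode the alpha (*Eif2s1*), beta (*Eif2s2*) and gamma (*Eif2s3x* and *Eif2s3y*) subunits of the factor that carries the initiator tRNA. *Eif2s2* (chr2:154713330-154734855, minus strand) had 2873, 2786, 2979 and 2827 normalized counts in L192P replicates 1 to 4, and 3110 (WT replicate 1), 2381, 2501 and 2438 in WT. WT replicate 1 was the highest of the 8 libraries, while the other 3 WT libraries were below every L192P library. Over all libraries the log2 fold change was 0.14 (SE 0.09, DESeq2 adjusted p = 0.683). Without WT replicate 1 it was 0.23 with an adjusted p of 0.00897 (3.24% of all genes were called there), and without both replicate 1 libraries 0.23 (SE 0.06) with an adjusted p of 0.0157. *Eif2s2* and *Eif5b* were thus the 2 of 52 members (3.85%) called in the 6 remaining libraries, where 3.46% of all genes were called.

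The 3′ UTR of *Eif2s2* held a seed match each for miR-128-3p (chr2:154713602-154713624) and miR-132-3p (chr2:154713673-154713695), both on the minus strand. The second is the seed also matched in *Eif5b*, the other gene whose call turned on the replicate 1 libraries. It was matched in 9 of 52 members (17.3%, against 13.7% of all genes), and a link between the seed and these calls was not tested.
miR-128-3p: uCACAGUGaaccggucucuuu
Eif2s2 site, miR-128-3p: tttttaatCACTGTGacctctga
Eif2s2 site, miR-132-3p: tgccaccaGACTGTTaactttgc

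*Eif2s1*, whose protein carries the serine that stress kinases phosphorylate, went the other way. It had 1325, 1314, 1284 and 1344.00 normalized counts in L192P replicates 1 to 4 and 1389.6, 1344.43, 1399 and 1415 in WT. The groups did not overlap, by a margin smaller than 1 normalized count, and the log2 fold change was -0.07 (SE 0.06, DESeq2 adjusted p = 0.810). *Eif2s1* was singled out after its values were seen, and 31.1% of its exonic bases overlap *Atp6v1d* and *Plek2* on the other strand.

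**Figure D2:**
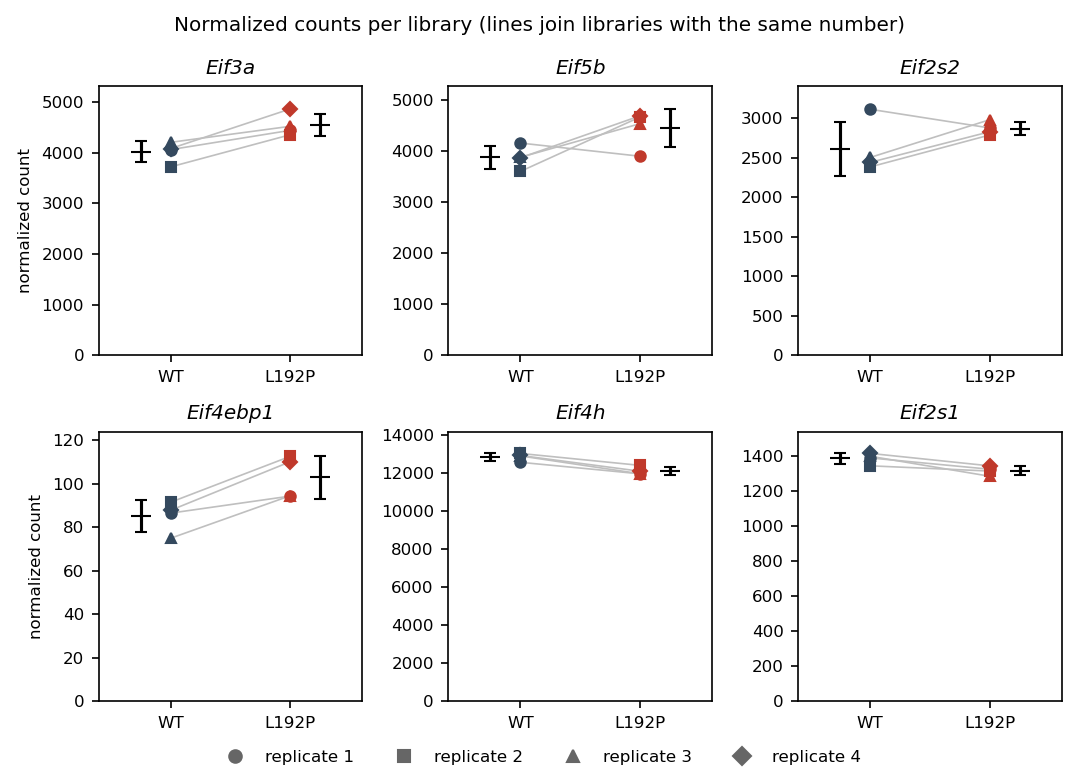
Normalized counts (vertical axes, each from 0) of 6 initiation factor genes in the 4 WT and 4 L192P libraries, with marker shape for the replicate number, grey lines joining equal numbers and black bars for mean and SD (n = 4). The groups do not overlap for *Eif3a*, *Eif4ebp1*, *Eif4h* and *Eif2s1*, and in *Eif5b* and *Eif2s2* the replicate 1 libraries run against the other 3 pairs.

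The gamma subunit has an X-linked and a Y-linked gene in the mouse. *Eif2s3y* had 735 and 731 normalized counts in replicate 1 of L192P and WT and 0 counts in the other 6 libraries. *Eif2s3x* had 1537 and 1501 in the same 2 libraries and 1803 to 2111 in the other 6. Both replicate 1 libraries were therefore alike across genotype in each gene. Summed over both genes, they held 2272 and 2232 normalized counts, above the 1803 to 2111 of the others, and *Eif2s3y* supplied 32.4% and 32.8% of these sums. Between the genotypes the log2 fold change of *Eif2s3x* was 0.06 (SE 0.11, DESeq2 adjusted p = 0.953). *Eif2s3y* has no adjusted p, since DESeq2 sets it aside as having outlying counts.

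**Figure D3:**
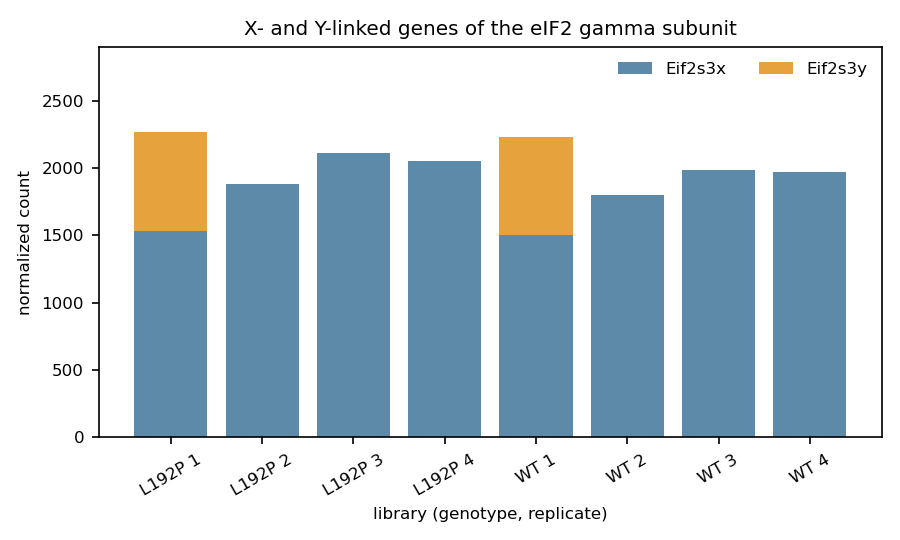
Normalized counts of *Eif2s3x* (blue) and *Eif2s3y* (orange), stacked, in each of the 8 libraries. *Eif2s3y* appears in replicate 1 of either genotype, where *Eif2s3x* is lowest and the sum reaches 2272 and 2232.

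The replicate 1 libraries differed from the others in more of these genes. In both of them 13 of the 53 genes were above all other 6 libraries (24.5%, against 8.86% of all genes tested) and 6 were below (11.3% against 9.89%). At means of at least 1000 normalized counts 10 of 40 members were above, against 12.7% of all genes, and 6 of 40 below, against 13.0%. Besides *Eif2s3y*, the 13 included *Eif1a* and *Eif1ax* (1.19 times the mean of the other 6 in each), *Eif2a*, *Eif5a2* and *Eif4e* (1.19, 1.18 and 1.17 times). The 6 below included the scaffolds *Eif4g1* and *Eif4g3* at 0.842 and 0.879 times and *Eif4ebp2* at 0.833 times. With 1 such library in each genotype, both groups shared this difference. Sex and any other property of these libraries cannot be told apart here.

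Regulation of eIF2 showed small differences. The 5 subunits of eIF2B, the exchange factor that reloads eIF2 with GTP, were all within 1.25-fold by their intervals, and their log2 fold changes ran from -0.07 (*Eif2b5*) to 0.04 (*Eif2b3*). Of the 4 eIF2 alpha kinases, *Eif2ak1* (heme-regulated) had the highest count, 1946 ± 78.6 in L192P and 2004 ± 49.0 in WT after normalization (SD, n = 4 each). *Eif2ak2*, the kinase activated by double-stranded RNA, was low and variable, with 103.7, 92.2, 151 and 125.8 normalized counts in the L192P libraries and 92.0, 104.5, 106.5 and 114.7 in the WT libraries. Its groups overlapped and its log2 fold change of 0.18 (SE 0.18, DESeq2 adjusted p = 0.883) left a range of -11.8% to 45.2%. *Eif2ak3* (the endoplasmic reticulum kinase PERK) and *Eif2ak4* (the amino acid sensor GCN2) were at 0.02 and 0.0097. *Eif2a* and *Eif2d*, which can deliver initiator tRNA without eIF2, had 0.05 and -0.11. None passed the test.

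The eIF4A helicases and their cofactors supplied 3 of the 5 highest levels per length. *Eif4a2*, the eIF4A helicase abundant in brain, had the highest level per kilobase of canonical transcript (8754 normalized counts per kilobase, range over libraries 8020 to 9670), ahead of *Eif1* (7955), *Eif5a* (7079), *Eif4h* (4858) and *Eif4a1* (4004). The ranges over libraries of *Eif4a2* and *Eif1* overlapped, so their order is not set by these data. Their order also turned when the union of all annotated exons was used as the length, and *Eif4g2* then stood 5th and *Eif4a1* 7th, so that 2 of the 5 highest were of this group. *Eif4a2* had a log2 fold change of 0.03 (SE 0.07, DESeq2 adjusted p = 0.973) and an interval of -7.01% to 12.04%. The scaffold *Eif4g2*, which acts in initiation without eIF4E, was bounded to -7.83% to 5.17%.

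*Eif4h* (chr5:134648575-134668400, minus strand), the cofactor that stimulates eIF4A, was the 1 member of this group with an unadjusted p under 0.05. It had 11946, 12389, 11947 and 12082 normalized counts in L192P replicates 1 to 4 and 12552, 13017, 12888 and 12910.2 in WT. All 4 L192P libraries were below all WT libraries. The log2 fold change was -0.09 (SE 0.04, DESeq2 adjusted p = 0.480, 0.247 with the replicate block), an estimate of -5.85% that did not pass the test. *Eif4b*, the related cofactor, had the opposite sign at 0.07 (SE 0.05, adjusted p = 0.772). The *Eif4h* 3′ UTR (1632 bases) held a seed match to miR-29a-3p (chr5:134649520-134649542, minus strand), a seed also matched once in *Eif5b* (chr1:38094254-38094276, plus strand). This seed was matched in 6 of 52 members (11.5%, against 16.7% of all genes), and a link between it and the estimates was not tested.
miR-29a-3p: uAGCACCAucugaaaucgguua
Eif4h site: agcaggggTGGTGCTggagctgc
Eif5b site, miR-29a-3p: cttccctcTGGTGCTgaggtgcc

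The cap-binding proteins *Eif4e*, *Eif4e2* and *Eif4e3* had log2 fold changes of 0.03, -0.05 and -0.08, and *Eif4e2*, a repressive cap-binding homolog linked to miRNA silencing, was bounded by a 95% log2 interval of -0.17 to 0.07. The inhibitor *Eif4ebp1*, a target of mTOR complex 1 that blocks eIF4E, had the largest estimate of all 53 genes. It had 94.4, 112.7, 94.5 and 110.2 normalized counts in L192P replicates 1 to 4 and 86.5, 91.5, 75.0 and 87.8 in WT. The groups did not overlap, and at this low level the log2 fold change of 0.26 (SE 0.17, DESeq2 adjusted p = 0.702) had an interval of -4.88% to 51.6%. Its far more abundant paralog *Eif4ebp2*, the main form in the brain, was at 0.02 (SE 0.10), with mean normalized counts of 1995 ± 127 in L192P and 1961 ± 259 in WT (SD, n = 4 each). *Eif4ebp3* was near the limit of detection, between 1.2 and 8.0 normalized counts in L192P libraries and between 4.3 and 10.9 in WT libraries. *Eif4enif1*, which carries eIF4E into the nucleus and to processing bodies, was at 0.07 (SE 0.07).

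Groups without overlap were found for 4 of the 53 genes, *Eif3a* and *Eif4ebp1* higher and *Eif4h* and *Eif2s1* lower in L192P, which is 7.55% beside 5.97% of all genes tested. No factor of a later step passed the test. *Eif5a*, which relieves stalled ribosomes, and its paralog *Eif5a2* had log2 fold changes of -0.06 and 0.12. *Eif6*, which keeps the large subunit apart, had -0.02, and *Eif4a3*, the helicase of the exon junction complex, had -0.02. The intervals of all 4 genes lay within 1.25-fold.

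**Figure D4:**
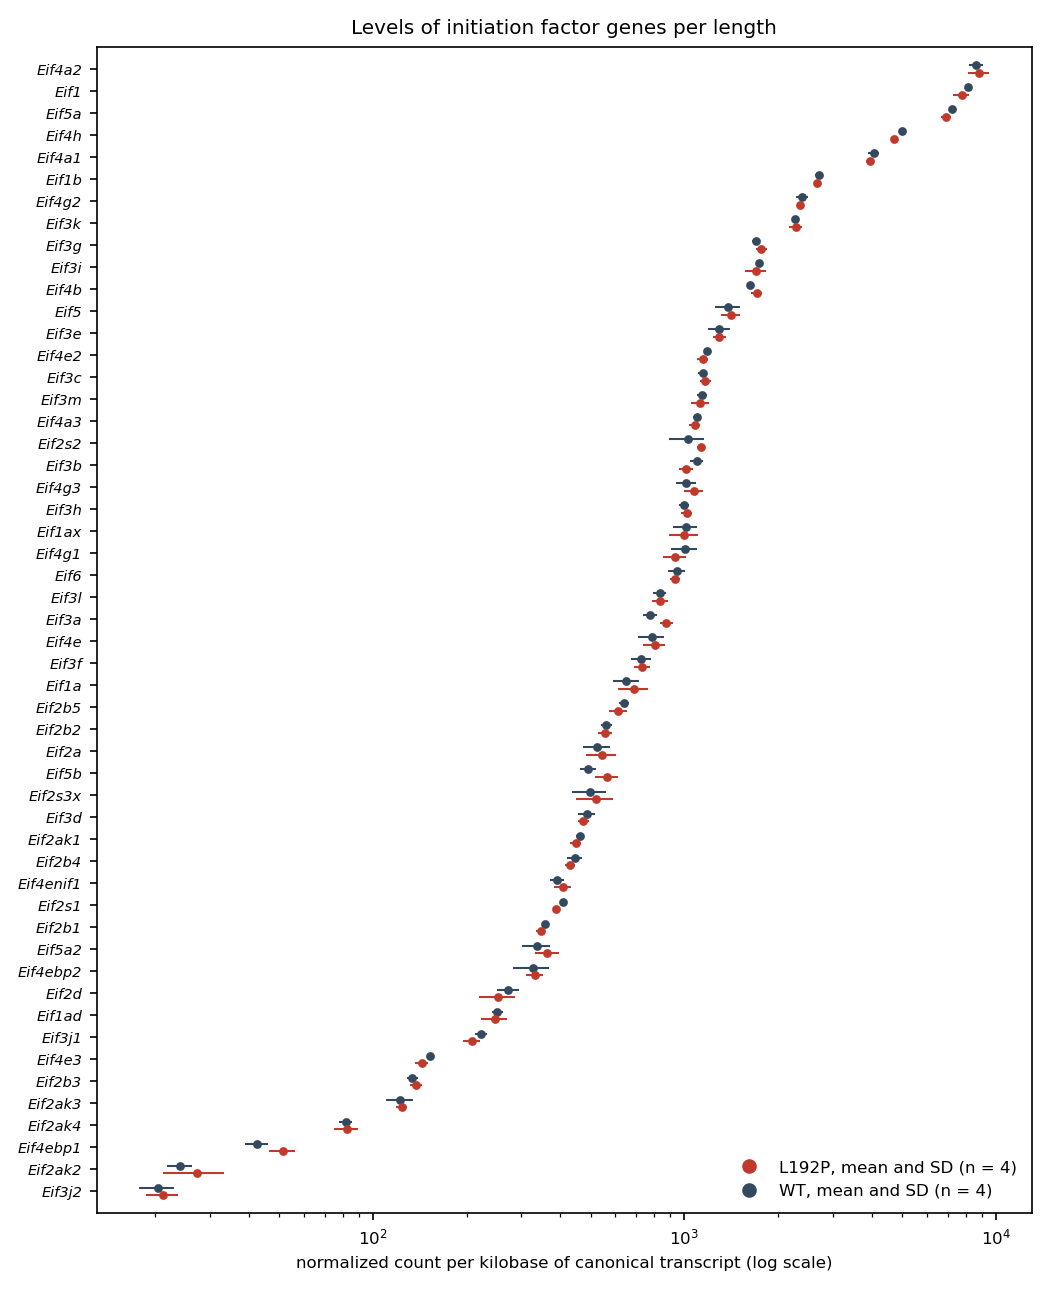
Mean normalized count per kilobase of canonical transcript (log axis) with SD (n = 4 each) of L192P (red) and WT (dark blue), for 52 initiation factor genes in order of level. The order runs from *Eif4a2* at 8754 to *Eif3j2* at 20.8, and the means of both genotypes lie close together in nearly every row.

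Several initiation factors are encoded by a pair of paralogs, and the share of each pair's normalized counts held by the second gene was computed per library as a description. *Eif4g3* held 52.9%, 51.5%, 51.5% and 53.9% of the *Eif4g1* and *Eif4g3* counts in L192P replicates 1 to 4 and 50.4%, 47.6%, 50.2% and 48.8% in WT. The groups did not overlap, with means of 52.4% ± 1.17 and 49.2% ± 1.29 (SD, n = 4 each). Neither gene alone passed the test, at log2 fold changes of -0.10 (*Eif4g1*, SE 0.08) and 0.08 (*Eif4g3*, SE 0.07). *Eif1ax* held 77.2% to 78.2% of the *Eif1a* and *Eif1ax* counts in L192P and 78.6% to 79.0% in WT, again without overlap. How often the shares of other gene pairs separate was not examined, and the shares were not tested. Of all single genes tested, 5.97% had groups without overlap. The shares of *Eif4a2* (74.4% to 76.5% in L192P, 74.1% to 75.2% in WT), *Eif4e2* (28.1% to 32.4%, 29.4% to 35.0%), *Eif3j2* (3.70% to 5.29%, 3.45% to 4.25%), *Eif5a2* (14.8% to 18.6%, 13.2% to 16.0%) and *Eif1b* (19.9% to 21.8%, 19.7% to 20.9%) overlapped. How the counting treated reads that fit both genes of a pair is not known, so the levels of such pairs are uncertain.

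**Figure D5:**
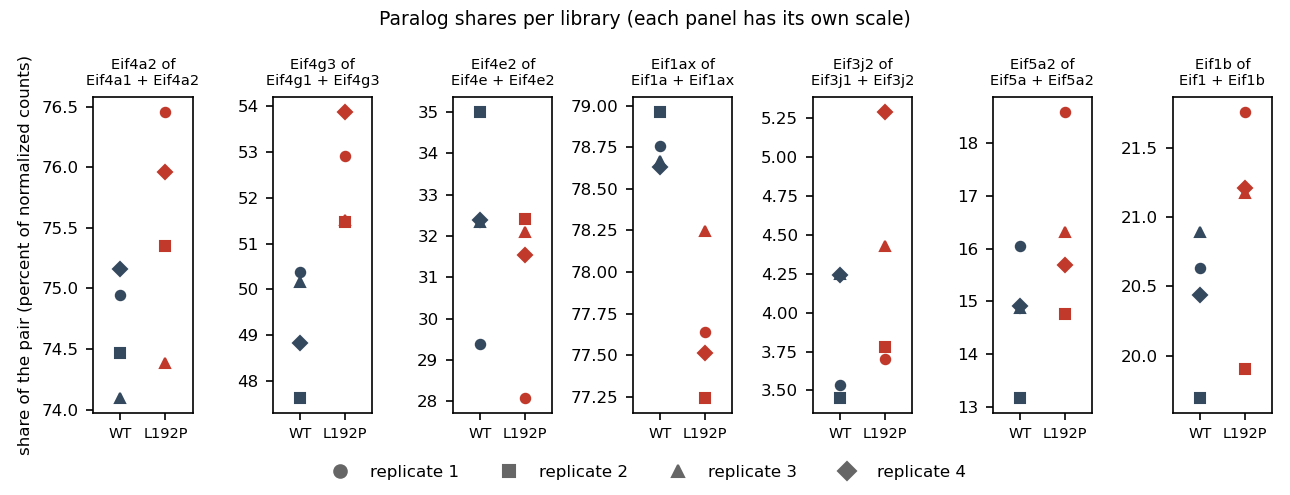
Share of a paralog pair's normalized counts held by the named gene (vertical axes in percent, a separate scale for each pair that does not start at 0) in the 4 WT (dark blue) and 4 L192P (red) libraries, with marker shape for the replicate number. The groups separate for *Eif4g3* (51.5% to 53.9% against 47.6% to 50.4%) and for *Eif1ax* (77.2% to 78.2% against 78.6% to 79.0%) and overlap in the other pairs.

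Seed matches were no more frequent in these genes than elsewhere. Of 52 members with an annotated 3′ UTR, 28 (53.8%) held a match to at least 1 of the 11 miRNAs, beside 68.0% of 14885 genes, and their UTRs were shorter, with a median of 970.5 bases against 1362. The median log2 fold change was 0.02 for members with a match and -0.02 for those without. miR-132-3p matched 9 members (17.3% against 13.7% of all genes), and let-7a-5p matched 1, *Eif4g2* (1.92% against 11.6%). A match is an exact run of 7 bases and does not show that AGO2 was bound there.

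The genes around the initiation machinery also gave few calls. No gene was called among 23 initiation cofactors with other names, among 17 elongation and termination factors, or among 23 genes of mTOR complex 1 signalling, whose median log2 fold changes were 0.03, 0.0040 and -0.05. At an unadjusted p under 0.05 these lists held 1, 0 and 2 genes. Estimates above and below 0 numbered 14 and 9, 9 and 8, and 7 and 16 in the same order. The summed normalized counts of the mTOR list were 37295 to 38498 in L192P and 38617 to 39085 in WT. These sums include *Rragd*, which had the lowest estimate of the list, and sums without it were not computed. Groups did not overlap for 2 of the 23 genes of the list, *Rragd* and *Lamtor3*, both lower in L192P, beside 5.97% of all genes tested. In the mTOR list, *Rragd*, a GTPase that recruits the complex to lysosomes, had 4511 ± 287 normalized counts in L192P and 5145 ± 238 in WT (SD, n = 4 each) and was called with the replicate block (log2 fold change -0.19, DESeq2 adjusted p = 0.135 without and 0.00612 with the block). With the block 4.25% of all genes were called. *Rragd* and *Lamtor3* were named after their values were seen.

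Of 26 regulators and targets of the integrated stress response, the pathway that starts from phosphorylated eIF2, 1 was called. Over all genes tested 1.36% were called, and 4.25% with the replicate block. *Slc7a11*, the cystine transporter gene induced by ATF4, had 648 (replicate 1), 883, 921 and 784.6 normalized counts in the L192P libraries and 617, 608, 591 and 647 in WT. Every L192P library was above every WT library, L192P replicate 1 only just, and the log2 fold change was 0.39 (SE 0.11, DESeq2 adjusted p = 0.0246). edgeR gave an adjusted p of 0.138, and *Slc7a11* lost its call when L192P replicate 2 or 4 was left out, and likewise for WT replicate 2, 3 or 4. Other genes of the pathway were not called. *Atf4* was at -0.01 (SE 0.06), *Ddit3* at -0.02 (SE 0.08), *Asns* at -0.08 (SE 0.06) and *Ppp1r15a*, the phosphatase subunit that ends the response, at -0.10 (SE 0.10). With the replicate block *Impact*, an inhibitor of GCN2 activation, was called as well (log2 fold change 0.28, DESeq2 adjusted p = 0.0831 without and 1.24e-05 with the block). The highest estimate of the list was that of *Trib3*, 0.49 (SE 0.38, DESeq2 adjusted p = 0.794), at mean normalized counts of 21.8 in L192P and 15.7 in WT. These genes other than *Slc7a11* were named for their role or after their values were seen. Estimates in the list were above 0 for 9 genes and below 0 for 17. The list's median log2 fold change was -0.02.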

How the data were processed

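The 8 stranded mRNA libraries of cerebral cortex were aligned by the authors with STAR (2.7.9a per the labels) to GRCm39 and counted per gene with featureCounts 1.5.1, and the authors deposited raw counts for each library without pooling. The strand setting and annotation release are not given in the sources used here. A deposited table of normalized signal equals the counts divided by DESeq2 size factors, to within 1e-06 in every value. The submitters' notes name DESeq2 1.40.2. Here the counts were fitted over all 55416 genes with DESeq2 1.42.0 in R 4.3.3, genotype as the only term, and genes were called where the p adjusted by Benjamini-Hochberg was under 0.05, without a minimum fold. The tool and threshold follow the study's methods. Intervals are 1.96 SE.

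The members and all gene and miRNA lists were chosen with earlier results of these data known. Named members were those called with or without the replicate block, those with an unadjusted p under 0.05, the highest and the most changed gene of each of 13 roles, *Eif2s3x*, *Eif2s3y* and the genes of 8 paralog pairs; others are said to be named after their values were seen or are given for their role. A result for 1 marker gene is not reported here.

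Replicate numbers come from the labels. Deviations from the group means correlated at 0.233 to 0.628 between the 4 same-numbered pairs over 13422 genes, and at -0.375 to 0.144 between the 12 other pairs, so the numbers were treated as pairing the libraries. Libraries of 1 genotype differed by more than sampling noise (chi-square per degree of freedom 5.52 to 22.6).

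Positions, lengths and 3′ UTRs came from GENCODE M39 (GRCm39), in which all 73 members and 98.8% of identifiers were found, and miRNA sequences from the RefSeq table on GRCm38.p6. The 11 miRNAs are let-7a-5p, miR-9-5p, miR-128-3p, miR-26a-5p, miR-29a-3p, miR-30a-5p, miR-125b-5p, miR-92a-3p, miR-138-5p, miR-132-3p and miR-5121. The site of a miRNA is the reverse complement of its seed, searched on the strand of the message only.

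Alternatives were edgeR 4.0.16, limma 3.58.1 (voom, and trend with pseudocounts of 1 and 0.5), TMM and total-count factors, a filter of 10 counts in 4 libraries, independent or Cook filtering off, the replicate block, and leaving out each library or both replicate 1 libraries. On simulated counts for 55416 genes, DESeq2 recovered 99% of 200 genes changed by 1 log2 unit, with 22 of 220 calls false. The estimates of the 53 members with a mean of at least 10 were smaller, from -0.11 to 0.26. Recovery of differences of that size was not tested.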

Additional observations from a re-analysis of the deposited data

Results flagged for a closer look

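The 4 libraries of a genotype were examined for 1 value lying far from the remaining 3. Of 66 such groups for named genes 3 were marked, where chance alone would mark about 3.3. That figure does not bear on the marks of *Eif2s3y*, a Y-linked gene counted in the replicate 1 libraries only. All 3 concern replicate 1 libraries. *Eif2s2* had 3110 normalized counts in WT replicate 1 and 2381 to 2501 in the other WT libraries, a gap that takes 0.836 of the group's range. *Eif2s3y* had 735 normalized counts in L192P replicate 1 and 731 in WT replicate 1, with 0 counts in the other libraries of either genotype.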

How the results depend on the processing

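The count of members called was 0 in the fit as reported, 1 with the replicate block (*Eif3a*), 2 without both replicate 1 libraries (*Eif5b* and *Eif2s2*) and 0 to 1 when each library was left out in turn, with 1 call without L192P replicate 1 (*Eif5b*) and 1 without WT replicate 1 (*Eif2s2*). It was 0 under the other alternatives. The median log2 fold change of the members was 0.0233 with total-count factors and -0.0167 to 0.00749 when each library was left out. In the mTOR list 1 gene was called with the replicate block, 1 without both replicate 1 libraries and 0 to 1 when each library was left out. In the integrated stress response list 2 genes were called with the replicate block and 2 without both replicate 1 libraries, 0 with edgeR, limma-voom or limma-trend at either pseudocount, and 0 to 2 when each library was left out. The cause of these moves was not tested. The replicate block changed no call in the lists of initiation cofactors and of elongation and termination factors. No result turned its direction once called, and 21 of 33 named members kept the sign of their estimate under all their alternatives. *Eif2s3y*, present in 2 libraries, has no usable fold change once either is left out. Few counts lie behind the 6 genes detected under a mean of 10, and the wide intervals of *Eif4ebp1*, *Eif3j2* and *Eif2ak2* hold both counting error and the spread between libraries, which for *Eif2ak2* was a coefficient of variation of 22.0% in L192P and 9.01% in WT.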

Other observations

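The count table also held 12 *Eif*-named rows that are pseudogenes or a non-coding gene and so fell outside the rule. *Eif4a-ps4* was the highest at a mean normalized count of 108.5 and a log2 fold change of 0.10 (DESeq2 adjusted p = 0.960). *Eif1-ps1* and *Eif5al3-ps* had means of 14.3 and 13.5, with log2 fold changes of 0.87 and 0.38 (adjusted p = 0.655 and 0.954). The other 9 had means under 10. Reads of such copies can be shared with their parent genes.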
